A study of Mus musculus with 9 samples.

Results

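The granzymes are the serine proteases that cytotoxic lymphocytes store in secretory granules and deliver into target cells. The members described here are the 10 rows of the deposited table with the symbols Gzma, Gzmb, Gzmc, Gzmd, Gzme, Gzmf, Gzmg, Gzmk, Gzmm and Gzmn, out of 48709 genes listed. They were taken by symbol, with no measured value used. The libraries are RNA-seq of mouse cells labelled as CD8+ T cells, in 3 groups of 3: cells with OVA peptide and citraconate (OVA/Citra), cells with OVA peptide (OVA) and cells without OVA peptide (CTRL). The peptide comes from chicken ovalbumin, a common model antigen. Citraconate is an isomer of itaconate, a small dicarboxylic acid made in metabolism. The series asks how citraconate alters transcription in such cells. No strain, genotype, age, dose or time is given in the sources used here, and no group had citraconate without peptide. The term "PAS-T cells", left undefined, stands in the labels of 8 libraries, and OVA/Citra replicate 1 is instead described as OVA-stimulated T cells. The sources used here do not state whether replicates are independent cultures, so each p-value rests on a spread among libraries that could be technical.

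Granzymes are made as inactive precursors, trimmed by cathepsin C, and held in granules on the proteoglycan serglycin. On contact with a target cell the granules are released, perforin opens the target membrane, and the proteases enter. Granzyme B cuts after aspartate and activates caspases, while granzymes A and K cut after basic residues and granzyme M after methionine. Granzymes C to G are encoded beside granzyme B in the mouse, and D to G are known mainly from strongly stimulated killer cells. Serpins of the cytosol protect the cell from its own granzymes.

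Each library held between 14754470 and 17384330 reads in genes. Values are in TPM (transcripts of a gene per 1000000 transcripts), so levels can be compared between genes. Of all genes, 11971 reached a mean of 1 TPM in at least 1 group and were tested. The defining T cell markers were present in every library: 9 genes (such as Cd3e, Cd8a and Trac) summed to 7487 to 7866 TPM in OVA/Citra, 4172 to 5309 TPM in OVA and 8402 to 8832 TPM in CTRL. In the whole table, 4522 genes were called higher and 2543 lower in OVA/Citra against OVA, and with each library scaled by the median of its ratios 3482 were higher and 3589 lower. The median log2 change of all tested genes was 0.12 in OVA/Citra against OVA, 0.04 in OVA/Citra against CTRL and -0.08 in OVA against CTRL. That scaling moved the median by more than 0.1, so log2 changes below are given minus these medians, on the log2(TPM + 1) scale, which understates changes of low genes. Each limma SE and adjusted p belongs to the change before that subtraction. In bulk RNA, fewer cells of a type and less RNA per cell cannot be told apart.

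Of the 10 members, 7 lie in 1 protease cluster on chromosome 14, in the order Gzme, Gzmd, Gzmg, Gzmn, Gzmf, Gzmc and Gzmb. Gzma and Gzmk are neighbours on chromosome 13, and Gzmm lies on chromosome 10. The sequences upstream of the starts are shown because they divide the cluster differently from the position of the genes. Among Gzmc, Gzmd, Gzme, Gzmf and Gzmg, the 250 bases before the RefSeq start were 70.2% to 94.8% identical over 10 pairs. The other 35 pairs of members, which include every pair with Gzmb or Gzmn, were 43.0% to 50.4% identical. A stretch of Gzmc to Gzmg, cut from AACCACA to AAAATGCC, is printed from RefSeq, build GRCm38.p6, minus strand, 5′ to 3′. Its ends were set at letters that all of these genes share. Capitals mark AACCACA (the letters of a Runx motif) and the 8 bases at the place of TGACGTCA (the letters of a CRE motif).
Gzme, chr14:56120647-56120801: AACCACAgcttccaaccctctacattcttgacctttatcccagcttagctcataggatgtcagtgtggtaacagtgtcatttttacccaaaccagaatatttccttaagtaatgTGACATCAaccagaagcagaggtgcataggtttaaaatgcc
Gzmd, chr14:56132614-56132768: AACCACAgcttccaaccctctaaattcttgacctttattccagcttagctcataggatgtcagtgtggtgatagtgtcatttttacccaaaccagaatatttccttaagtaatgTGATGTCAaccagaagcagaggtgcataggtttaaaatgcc
Gzmg, chr14:56159616-56159770: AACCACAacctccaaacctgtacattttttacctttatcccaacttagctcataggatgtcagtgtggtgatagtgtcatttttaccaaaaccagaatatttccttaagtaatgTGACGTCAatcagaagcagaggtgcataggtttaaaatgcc
Gzmf, chr14:56211449-56211603: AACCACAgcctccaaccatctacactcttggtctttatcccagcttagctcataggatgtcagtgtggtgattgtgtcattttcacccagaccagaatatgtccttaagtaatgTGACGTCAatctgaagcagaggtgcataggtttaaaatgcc
Gzmc, chr14:56234674-56234832: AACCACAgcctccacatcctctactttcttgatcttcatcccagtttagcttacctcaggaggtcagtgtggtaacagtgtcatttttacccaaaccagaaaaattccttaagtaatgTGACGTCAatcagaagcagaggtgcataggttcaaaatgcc
The stretch before Gzmb shows the letters TGANTCA (an AP-1 motif) and TGTGGTT, the same Runx letters read on the other strand, in capitals.
Gzmb, chr14:56262335-56262404: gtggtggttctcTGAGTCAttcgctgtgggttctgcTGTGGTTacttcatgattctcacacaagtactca

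Over the printed stretch, whose ends were set at shared letters, the genes Gzmc to Gzmg were 84.9% to 96.1% identical. On either strand of the 250 bases, AACCACA was found in 7 members (Gzma to Gzmg), against 4.40% of 32851 RefSeq windows of this length. TGACGTCA was found in 3 members (Gzmc, Gzmf and Gzmg), against 1.55% of windows, while Gzmd and Gzme carried TGATGTCA and TGACATCA at its place. TGANTCA was found in 1 member, Gzmb, against 6.75% of windows. AGGTGTGA (a T-box motif) was found in 0 members, against 1.12% of windows, and TATAAA in 1 member, Gzmn, against 12.4%. In coding sequence (GENCODE M21), Gzmd, Gzme, Gzmf, Gzmg and Gzmn were 79.8% to 93.3% identical to one another, so Gzmn is alike in its coding sequence and unlike upstream. Gzmc was 70.0% to 73.4% and Gzmb 65.3% to 68.3% identical to these 5, and Gzmb and Gzmc were 76.2% identical to each other.

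In OVA against CTRL, 9 of the 10 members were higher and 0 lower, where 32.1% of all tested genes were called higher and 39.8% lower. In OVA/Citra against OVA, 8 were lower and 0 higher, where 21.2% of all tested genes were called lower and 37.8% higher. OVA/Citra against CTRL had 7 higher and 0 lower, where 33.1% of all tested genes were called higher and 26.3% lower. A call means an adjusted p under 0.05 in limma, with Benjamini-Hochberg adjustment over all tested genes. The median log2 change of the members, before the all-gene median is taken off, was -2.14 in OVA/Citra against OVA, 3.14 in OVA/Citra against CTRL and 4.35 in OVA against CTRL. Each pair of these comparisons shares 1 group of libraries. Gzmn was tested only through its level in OVA; leaving it out, 8 of 9 were higher in OVA than in CTRL and 7 of 9 lower in OVA/Citra than in OVA. Without OVA/Citra replicate 1, the library with the other description, 9 were higher in OVA than in CTRL, 8 lower in OVA/Citra than in OVA and 7 higher in OVA/Citra than in CTRL.

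**Figure D1:**
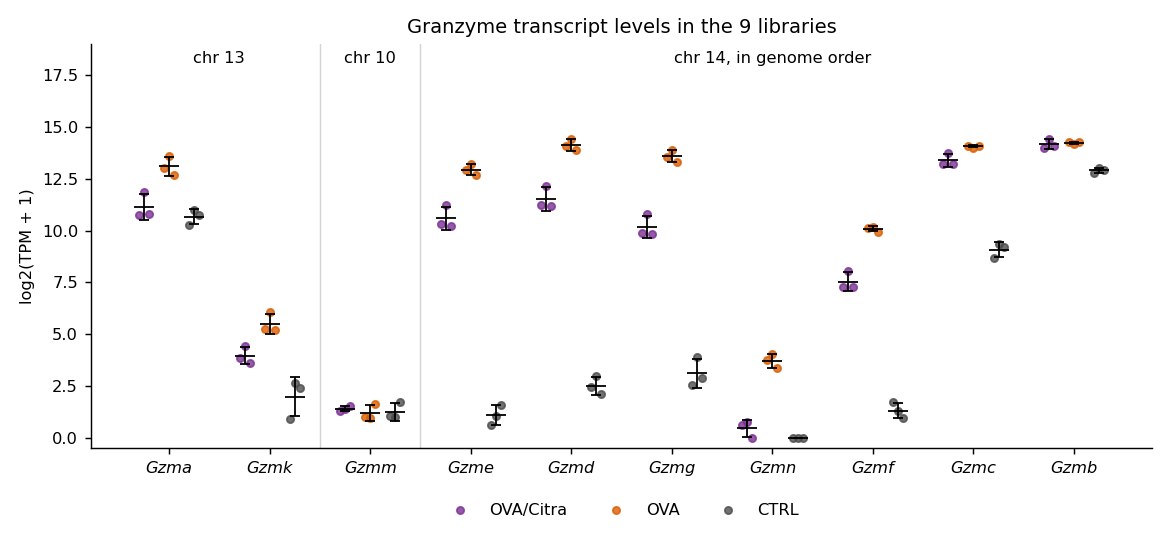
Level of each granzyme as log2(TPM + 1) in the 9 libraries; dots are libraries and black marks the mean with SD (n = 3). The 3 groups stand close together for Gzmm, while Gzmd to Gzmg lie near the bottom in CTRL and among the high genes in OVA.

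Gzmb, the caspase-activating granzyme, was abundant with and without peptide. It stood at 16273, 22240 and 17061 TPM in OVA/Citra, at 19977, 18749 and 19608 TPM in OVA, and at 7088, 8199 and 7818 TPM in CTRL. The OVA/Citra libraries lay on both sides of the OVA range, and both groups lay above every CTRL library. The mean was 18525 ± 3242 TPM in OVA/Citra, 19445 ± 629.9 TPM in OVA and 7702 ± 564.8 TPM in CTRL (SD, n = 3 each). In OVA against CTRL the log2 change was 1.42 (SE 0.11, limma adjusted p = 2.45e-06), a 2.52-fold ratio of means. Against OVA, OVA/Citra gave -0.08 before the all-gene median is taken off (SE 0.11, limma adjusted p = 0.538) and -0.21 after; with median of ratios scaling, which has that shift built in, it gave -0.22 (limma adjusted p = 0.156). Neither test passed, which does not show that the levels were alike. Without OVA/Citra replicate 2, the highest library, the change before the median is taken off was -0.22 and passed the test (limma adjusted p = 0.0193). The change was 1.22 in OVA/Citra against CTRL (SE 0.11, limma adjusted p = 7.55e-06).

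Gzmc, the neighbour of Gzmb, rose far more with peptide and fell in part with citraconate. Gzmc stood at 9451, 13674 and 9560 TPM in OVA/Citra, at 17499, 16458 and 17294 TPM in OVA, and at 411.1, 660.7 and 582.7 TPM in CTRL. All 3 groups were apart. The mean in OVA was 31.0 times that in CTRL, with a log2 change of 5.06 (SE 0.18, limma adjusted p = 1.33e-08). The OVA/Citra mean was 63.8% of the OVA mean, with a log2 change of -0.79 (SE 0.18, limma adjusted p = 0.00814). OVA/Citra against CTRL gave 4.27 (SE 0.18, limma adjusted p = 4.94e-08).

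Gzmd, Gzme, Gzmf and Gzmg, the closely related granzymes of the same cluster, were near 0 in CTRL, high in OVA and in between in OVA/Citra. Gzmd stood at 2373, 4599 and 2338 TPM in OVA/Citra, at 17244, 21908 and 15235 TPM in OVA, and at 4.48, 6.94 and 3.29 TPM in CTRL. Gzme stood at 1277, 2392 and 1205 TPM in OVA/Citra, at 7771, 9359 and 6511 TPM in OVA, and at 0.562, 1.06 and 2.03 TPM in CTRL. Both had groups that did not overlap, and replicate 2 was the highest library of OVA/Citra and of OVA for each. The CTRL levels rested on 88 reads for Gzmd and 22 reads for Gzme over 3 libraries, which gives pooled levels with exact 95% Poisson intervals of 3.89 to 5.97 TPM and 0.793 to 1.91 TPM, covering counting error only.

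Gzmg stood at 944.5, 1764 and 917.1 TPM in OVA/Citra, at 12004, 15200 and 10304 TPM in OVA, and at 4.94, 14.004 and 6.35 TPM in CTRL. Gzmf stood at 154.3, 268.3 and 154.6 TPM in OVA/Citra, at 1099, 1165 and 987.5 TPM in OVA, and at 2.29, 1.44 and 0.956 TPM in CTRL. Neither gene had overlapping groups, and Gzmf was below Gzmd, Gzme and Gzmg in every OVA library. The reads recovered for Gzmf, set against its TPM, implied a length of 453 bases, 49.3% of its annotated 919 bases. The other members were at 88.2% to 114% of their longest annotated transcript. Of 730 genes with 1 transcript, 8 (1.10%) were at or under the Gzmf share. Recovered reads are the smallest whole numbers that fit. A factor common to all libraries would thus be lost from the reads and from the implied length. Whether this applies to Gzmf was not tested.

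In OVA against CTRL the log2 change was 11.69 for Gzmd (SE 0.28) and 11.91 for Gzme (SE 0.29), each with a limma adjusted p of 1.48e-09. It was 8.83 for Gzmf (SE 0.22, limma adjusted p = 1.68e-09) and 10.55 for Gzmg (SE 0.34, limma adjusted p = 7.67e-09). All 4 fell in OVA/Citra against OVA: Gzmd changed by -2.73 (limma adjusted p = 4.83e-05), Gzme by -2.46 (limma adjusted p = 9.25e-05), Gzmf by -2.66 (limma adjusted p = 1.87e-05) and Gzmg by -3.54 (limma adjusted p = 3.09e-05). What stood in OVA/Citra was 17.1% of the OVA mean for Gzmd, 20.6% for Gzme, 17.8% for Gzmf and 9.67% for Gzmg. All 4 were still higher in OVA/Citra against CTRL, by 8.97 for Gzmd, 9.46 for Gzme, 6.18 for Gzmf and 7.01 for Gzmg, with limma adjusted p-values of at most 1.41e-07.

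Gzmn, a granzyme known from the mouse testis, was highest in OVA. It stood at 0.524, 0.708 and 0 TPM in OVA/Citra, at 12.5, 15.4 and 9.40 TPM in OVA, and at 0 TPM in every CTRL library. Over 3 libraries it had 7 reads in OVA/Citra, 234 reads in OVA and 0 reads in CTRL. With CTRL set at 0.167 TPM (3 reads over the CTRL group), the pooled OVA level of 12.4 TPM was 74.0-fold higher. This ratio is not a lower bound. Exact Poisson intervals, covering counting error only, reached up to 0.205 TPM in CTRL and down to 10.8 TPM in OVA. Gzmn was called higher in OVA against CTRL (limma adjusted p = 2.51e-07) and lower in OVA/Citra against OVA (limma adjusted p = 6.09e-06). Because it was tested only through its level in OVA, neither call is independent of the filter that admitted it. The change in OVA/Citra against OVA before the median is taken off was -3.26, and it depended on the setting: -1.68 with a pseudocount of 5, -5.06 with a pseudocount of 0.1 and -5.32 with voom on the recovered reads. OVA/Citra against CTRL was not called (limma adjusted p = 0.0932); without OVA/Citra replicate 3, the library at 0, it was (limma adjusted p = 0.0133).

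Gzma and Gzmk, the neighbours on chromosome 13, moved in the same directions from different levels. Gzma stood at 1741, 3695 and 1800 TPM in OVA/Citra, at 8171, 12508 and 6583 TPM in OVA, and at 1249, 2043 and 1729 TPM in CTRL. The OVA/Citra and CTRL ranges overlapped, and the OVA libraries lay above both. The mean was 2412 ± 1111 TPM in OVA/Citra, 9087 ± 3067 TPM in OVA and 1673 ± 400.1 TPM in CTRL (SD, n = 3 each). The log2 change was 2.49 in OVA against CTRL (SE 0.31, limma adjusted p = 5.93e-05) and -2.08 in OVA/Citra against OVA (SE 0.31, limma adjusted p = 0.000471). OVA/Citra against CTRL gave 0.43 (SE 0.31, limma adjusted p = 0.229), which did not pass the test. With replicate number as a block in the fit, Gzma passed in this comparison (limma adjusted p = 0.0256). What same-numbered libraries share is not stated in the sources used here.

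Gzmk stood at 13.3, 20.8 and 11.4 TPM in OVA/Citra, at 36.7, 65.5 and 36.2 TPM in OVA, and at 0.871, 5.29 and 4.36 TPM in CTRL. Its 3 groups did not overlap. The log2 change was 3.59 in OVA against CTRL (SE 0.42, limma adjusted p = 3.41e-05), -1.66 in OVA/Citra against OVA (SE 0.42, limma adjusted p = 0.0103) and 1.94 in OVA/Citra against CTRL (SE 0.42, limma adjusted p = 0.00249). With a pseudocount of 5 the last of these was 1.26 before the median is taken off, against 1.98. Gzmm, known mostly from natural killer cells, stood at 1.47, 1.60 and 1.89 TPM in OVA/Citra, at 1.04, 0.954 and 2.16 TPM in OVA, and at 1.06, 0.998 and 2.35 TPM in CTRL. It had 41 to 45 reads per group, its ranges overlapped, and no comparison passed the test (limma adjusted p = 0.516 in OVA/Citra against OVA, 0.622 in OVA/Citra against CTRL and 0.879 in OVA against CTRL).

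**Figure D2:**
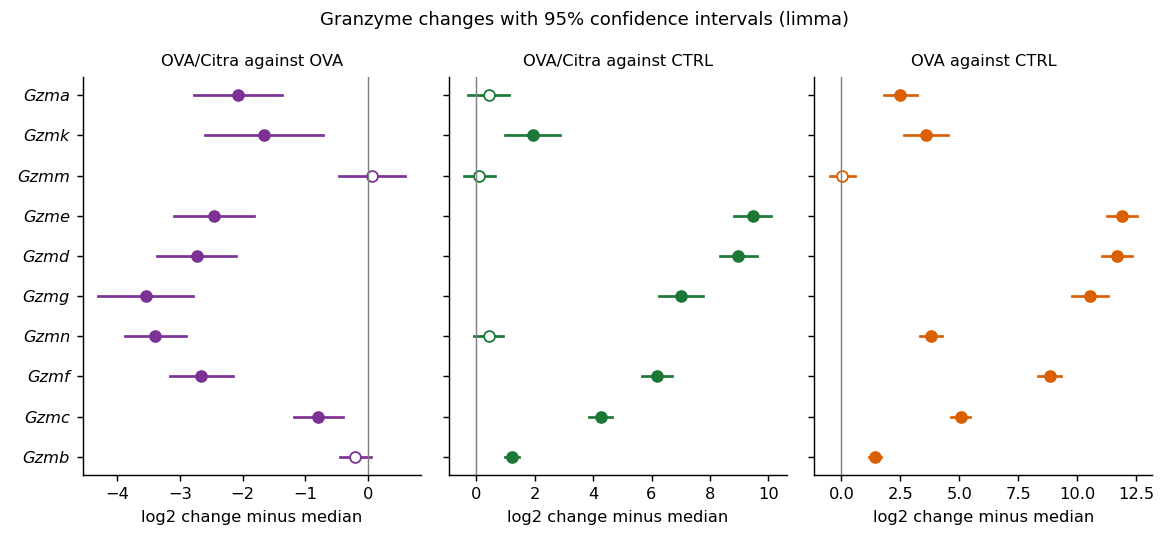
Log2 change of each granzyme, minus the median of all tested genes, with its 95% confidence interval from limma; filled dots passed an adjusted p of 0.05, tested before that subtraction, and open dots did not. In OVA/Citra against OVA, Gzmb and Gzmm are open and the other 8 lie below 0, with Gzmg at -3.54 and Gzmc at -0.79.

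The order of the members changed with the group. In OVA, Gzmb, Gzmd and Gzmc were ranks 1, 2 and 3 of all genes. The range of Gzmd overlapped those of Gzmb and Gzmc, while every Gzmb library stood above every Gzmc library. Gzmg, Gzma and Gzme followed with ranges that overlapped in sequence, then Gzmf, Gzmk, Gzmn and Gzmm, each apart from the next. In OVA/Citra, Gzmb was rank 3 and Gzmc rank 7 of all genes and the 2 were apart. Gzmd, Gzma, Gzme and Gzmg followed at ranks 46, 60, 92 and 127 with ranges that overlapped in sequence, and Gzmf, Gzmk, Gzmm and Gzmn came after, each apart. In CTRL, Gzmb was rank 10 of all genes, Gzma rank 96 and Gzmc rank 227, each apart, and the others stood at or below 14.004 TPM with ranges that overlapped from one to the next, except Gzmn at 0.

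Summed, the 10 genes gave 3.80 ± 0.926% of all transcripts in OVA/Citra, 8.53 ± 0.951% in OVA and 0.995 ± 0.110% in CTRL (SD, n = 3 each). No 2 groups overlapped, and each comparison had an exact two-sided permutation p of 0.1, the smallest that 3 against 3 allows. The makeup of the family differed as well. Gzmb was 49.3 ± 3.14% of granzyme transcripts in OVA/Citra, 23.0 ± 3.06% in OVA and 77.6 ± 2.996% in CTRL. Gzmc was 28.8 ± 0.623% in OVA/Citra, 20.2 ± 2.73% in OVA and 5.49 ± 0.709% in CTRL. Gzmd, Gzme, Gzmf, Gzmg and Gzmn together were 13.96% to 18.5% in OVA/Citra, 43.2% to 49.9% in OVA and 0.124% to 0.214% in CTRL.

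**Figure D3:**
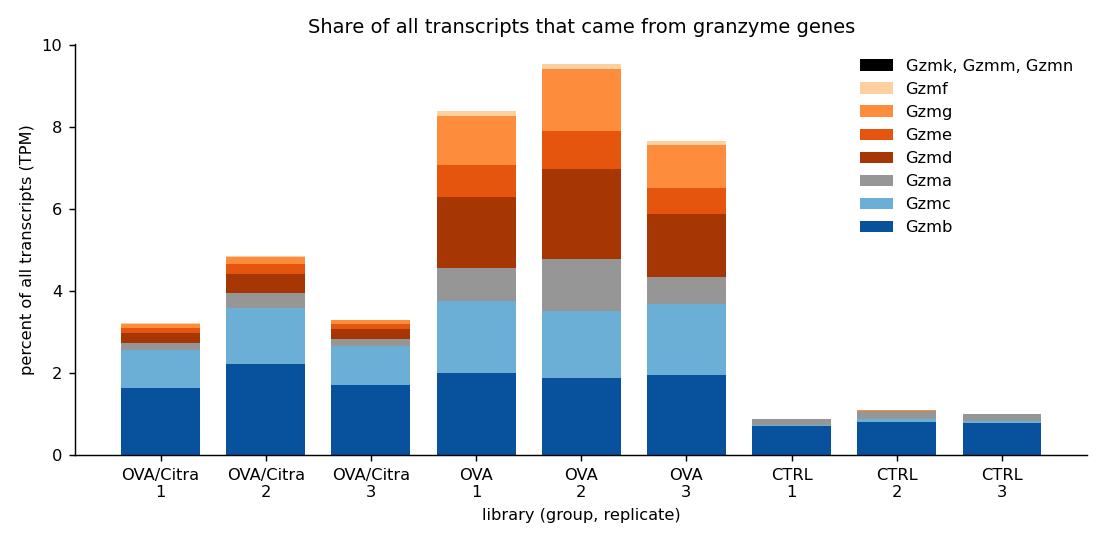
Percent of all transcripts from granzyme genes in each library, stacked by gene. The OVA bars reach above the OVA/Citra bars, which average 3.80%, and the orange layers (Gzmd, Gzme, Gzmg and Gzmf) make most of the gap, while Gzmb averages 18525 TPM in OVA/Citra and 19445 TPM in OVA.

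A ratio to Gzmb within each library does not depend on the total of that library. On the log2 scale, in OVA/Citra minus OVA, this ratio differed by -0.59 for Gzmc, -1.45 for Gzmk, -1.87 for Gzma, -2.25 for Gzme, -2.45 for Gzmf, -2.52 for Gzmd, -3.18 for Gzmn and -3.34 for Gzmg. The value for Gzmn was -1.59 with a pseudocount of 5 and -4.97 with 0.1. Gzmm went the other way, by 0.27, with overlapping groups (exact two-sided permutation p = 0.3). For each of the other 8 genes the groups did not overlap, and the exact two-sided permutation p was 0.1 (0.1125 adjusted over 9 members), the smallest that 3 against 3 allows. The share of all tested genes whose ratio to Gzmb was also apart was not counted. The lack of overlap thus does not set these 8 apart from other genes.

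Along chromosome 14 the fall was not graded evenly. The OVA/Citra mean was 95.3% of the OVA mean at Gzmb and 63.8% at Gzmc, and between 3.30% and 20.6% at the 5 genes beyond, Gzmf, Gzmn, Gzmg, Gzmd and Gzme. The proteases next along the cluster had a like profile. Ctsg, which encodes cathepsin G of neutrophil granules, averaged 21.9 ± 4.03 TPM in OVA/Citra, 244.9 ± 8.99 TPM in OVA and 0 TPM in CTRL. Mcpt8, a basophil protease, averaged 31.1 ± 10.4 TPM in OVA/Citra, 192.7 ± 26.5 TPM in OVA and 0.120 ± 0.104 TPM in CTRL. Cma1, a mast cell chymase, averaged 6.82 ± 1.72 TPM in OVA/Citra, 55.9 ± 10.2 TPM in OVA and 0.188 ± 0.203 TPM in CTRL. All 3 were lower in OVA/Citra than in OVA (limma adjusted p of at most 8.25e-06). The 5 other cluster genes between Cma1 and Mcpt8 did not exceed a mean of 0.255 TPM in any group.

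Markers of the cells that usually make these proteases were in part absent and in part moved with them. Neutrophil markers summed to at most 0.586 TPM in OVA/Citra, 1.82 TPM in OVA and 0.347 TPM in CTRL, with S100a8, S100a9, Elane, Camp and Ngp, 5 of the 7 genes, at 0 throughout. Ly6g, the neutrophil marker that was tested, and only through its level in OVA, averaged 0.297 TPM in OVA/Citra, 1.56 TPM in OVA and 0.116 TPM in CTRL. Mast cell and basophil markers other than Mcpt8 and Cma1 summed to 10.8 to 21.8 TPM in OVA/Citra, 17.3 to 20.4 TPM in OVA and 3.73 to 6.69 TPM in CTRL. Kit, a receptor of mast cells and progenitors, made up most of that sum in OVA/Citra, at 13.4 ± 4.10 TPM in OVA/Citra, 8.31 ± 1.22 TPM in OVA and 1.66 ± 0.506 TPM in CTRL. Cpa3, a mast cell carboxypeptidase, averaged 1.37 ± 1.10 TPM in OVA/Citra, 7.72 ± 1.97 TPM in OVA and 3.43 ± 1.45 TPM in CTRL, and was called higher in OVA against CTRL (limma adjusted p = 0.0154) and lower in OVA/Citra against OVA (limma adjusted p = 0.000480). Fcer1a, a chain of the IgE receptor, averaged 0.279 TPM in OVA/Citra, 1.16 TPM in OVA and 0 TPM in CTRL and was tested only through its level in OVA. The part of these markers in the protease values was not tested.

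The 3 genes on each side of the cluster, a number chosen after values were seen, did not all behave alike. On the side of Cma1, Khnyn averaged 24.6 TPM in OVA/Citra, 25.1 TPM in OVA and 52.1 TPM in CTRL, and Sdr39u1 averaged 65.2 TPM in OVA/Citra, 61.5 TPM in OVA and 77.2 TPM in CTRL; neither was called in OVA/Citra against OVA (limma adjusted p = 0.765 for Khnyn and 0.178 for Sdr39u1). On the side of Gzmb, Cenpj, a centriole gene, averaged 10.6 TPM in OVA/Citra, 13.8 TPM in OVA and 11.8 TPM in CTRL, and was lower in OVA/Citra against OVA (log2 change -0.47, limma adjusted p = 0.0311) and not called in OVA against CTRL (limma adjusted p = 0.141). Rnf17 had the order of the cluster genes at a low level, 0.330 TPM in OVA/Citra, 0.960 TPM in OVA and 0.102 TPM in CTRL, too low to be tested. Atp12a and Cbln3 did not exceed a mean of 0.176 TPM in any group.

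**Figure D4:**
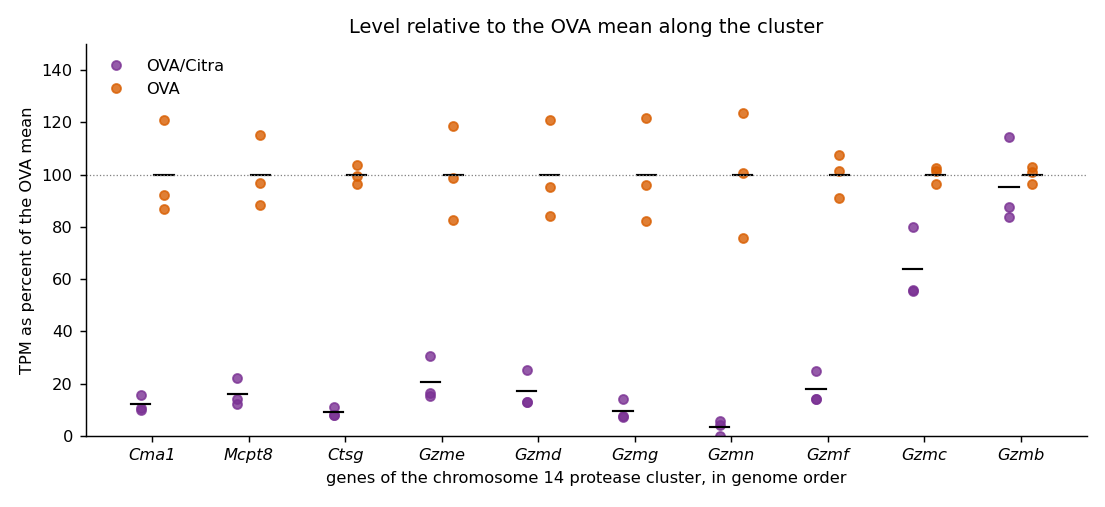
TPM of each library as percent of the OVA mean, for the genes of the chromosome 14 protease cluster that reached 1 TPM, in genome order; dots are libraries and bars are means. OVA/Citra libraries are low from Cma1 to Gzmf, intermediate at Gzmc (mean 63.8%), and at 83.7% to 114.4% for Gzmb (mean 95.3%), on both sides of the OVA libraries.

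Natural killer cell markers moved with the granzymes. All 8 were higher in OVA than in CTRL, where 32.1% of all tested genes were, and all 8 were lower in OVA/Citra than in OVA, where 21.2% of all tested genes were. Klra4 was tested only through its level in OVA, and the other 7 also reached 1 TPM in OVA/Citra. The sum over all 8 was 309.5 to 538.3 TPM in OVA/Citra, 1601 to 2560 TPM in OVA and 10.8 to 14.1 TPM in CTRL, with Ncr1 at 0 in CTRL. T cell markers moved the other way, with 8 of 9 lower in OVA than in CTRL (against 39.8% of all tested genes) and 8 of 9 higher in OVA/Citra than in OVA (against 37.8%). The part of either in the granzyme values was not tested.

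Genes related to granzymes moved in both directions. The 64 genes stand on 5 lists: 9 of processing and sorting, 13 of the pore and of granule release, 11 inhibitors, 17 transcription factors and cytokine receptors, and 14 other granule proteases. Of these, 50 were tested, 3 of them (Sort1, Prss34 and Prss57) through 1 group only. For OVA/Citra against OVA, 23 were higher and 16 lower, where 37.8% of all tested genes were higher and 21.2% lower, with a median log2 change of 0.16 against 0.12 over all tested genes. With median of ratios scaling, 17 were higher and 19 lower, where 3482 of all 11971 tested genes were higher and 3589 lower. For OVA/Citra against CTRL, 33 were higher and 5 lower, where 33.1% of all tested genes were higher and 26.3% lower. In OVA against CTRL, 30 were higher and 12 lower, where 32.1% of all tested genes were higher and 39.8% lower, with a median of 0.39 on the lists and -0.08 over all tested genes. Without the 3 genes tested through 1 group, 22 of 47 were higher and 15 lower in OVA/Citra against OVA.

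Among 8 genes of processing and sorting, 3 were higher and 3 lower in OVA/Citra against OVA, a share of 37.5% each way beside 37.8% higher and 21.2% lower over all tested genes. One of the higher ones, Sort1, was tested only through its level in OVA/Citra. The other higher ones were Igf2r and Gnptab. Igf2r averaged 80.7 TPM in OVA/Citra and 60.2 TPM in OVA (limma adjusted p = 0.0147). M6pr, a mannose 6-phosphate receptor that sorts granzymes to granules, averaged 193.9 ± 11.6 TPM in OVA/Citra, 369.2 ± 41.3 TPM in OVA and 153.6 ± 0.573 TPM in CTRL. It fell by 1.05 on the log2 scale in OVA/Citra against OVA (limma adjusted p = 1.22e-05). Srgn, the serglycin gene, averaged 526.6 ± 15.0 TPM in OVA/Citra and 615.0 ± 24.3 TPM in OVA (limma adjusted p = 0.00177), and Ctsc, which trims the precursors, 44.3 ± 3.13 TPM in OVA/Citra and 51.2 ± 3.32 TPM in OVA (limma adjusted p = 0.0330).

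Among 12 genes of the pore and of granule release, 8 were higher and 3 lower in OVA/Citra against OVA, beside 37.8% and 21.2% over all tested genes. Of the higher ones, Nkg7, Stxbp2 and Ap3b1 changed by at most 0.04 once the all-gene median is taken off, and the others by 0.13 to 0.78. Prf1, the perforin gene, was among the lower ones, at 1986 ± 587 TPM in OVA/Citra, 5047 ± 935 TPM in OVA and 28.2 ± 2.59 TPM in CTRL, a log2 change of -1.49 in OVA/Citra against OVA (limma adjusted p = 0.000159). Unc13d, a priming factor for release, was lower too, at 75.8 ± 1.87 TPM in OVA/Citra and 106.9 ± 6.82 TPM in OVA (limma adjusted p = 5.23e-05). The SNARE genes did not all move alike. Stx11, Vamp2 and Vamp8 were higher, and Stx11 averaged 110.8 ± 5.88 TPM in OVA/Citra and 58.7 ± 4.66 TPM in OVA (limma adjusted p = 2.50e-05). Snap23 was lower, at 28.4 ± 2.07 TPM in OVA/Citra and 35.0 ± 1.98 TPM in OVA (limma adjusted p = 0.00891).

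Among 8 inhibitors, 3 were higher and 2 lower in OVA/Citra against OVA, near the shares of 37.8% and 21.2% over all tested genes. Serpinb9, the inhibitor of granzyme B, averaged 248.5 ± 35.8 TPM in OVA/Citra, 276.0 ± 9.44 TPM in OVA and 12.2 ± 0.837 TPM in CTRL. It was higher in OVA than in CTRL (limma adjusted p = 1.27e-09), and OVA/Citra against OVA did not pass the test (limma adjusted p = 0.160). Serpinb6b averaged 805.6 ± 27.4 TPM in OVA/Citra and 390.0 ± 75.7 TPM in OVA, a log2 change of 0.94 (limma adjusted p = 7.68e-05).

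Among 17 transcription factor and cytokine receptor genes, 9 were higher and 4 lower in OVA/Citra against OVA, beside 37.8% and 21.2% over all tested genes. Eomes, a T-box factor of cytotoxic cells, averaged 82.8 ± 15.6 TPM in OVA/Citra, 177.5 ± 44.7 TPM in OVA and 3.35 ± 0.171 TPM in CTRL. Its log2 change was -1.20 in OVA/Citra against OVA (limma adjusted p = 0.000335). Tbx21, the related T-box factor, averaged 24.7 ± 1.52 TPM in OVA/Citra and 27.3 ± 4.38 TPM in OVA and was not called (limma adjusted p = 0.357). Tcf7, a factor of naive and memory cells, averaged 60.6 ± 24.2 TPM in OVA/Citra, 3.24 ± 2.32 TPM in OVA and 61.0 ± 19.1 TPM in CTRL, a log2 change of 3.78 in OVA/Citra against OVA (limma adjusted p = 4.11e-05). Of the other granule proteases, Ctsg, Mcpt8 and Cma1 were lower in OVA/Citra against OVA, as given above. Prss34, tested only through its level in OVA, averaged 0.275 TPM in OVA/Citra, 1.84 TPM in OVA and 0 TPM in CTRL, and Prss57, tested only through CTRL, averaged 0.0181 TPM in OVA/Citra, 0 TPM in OVA and 2.65 TPM in CTRL.

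**Figure D5:**
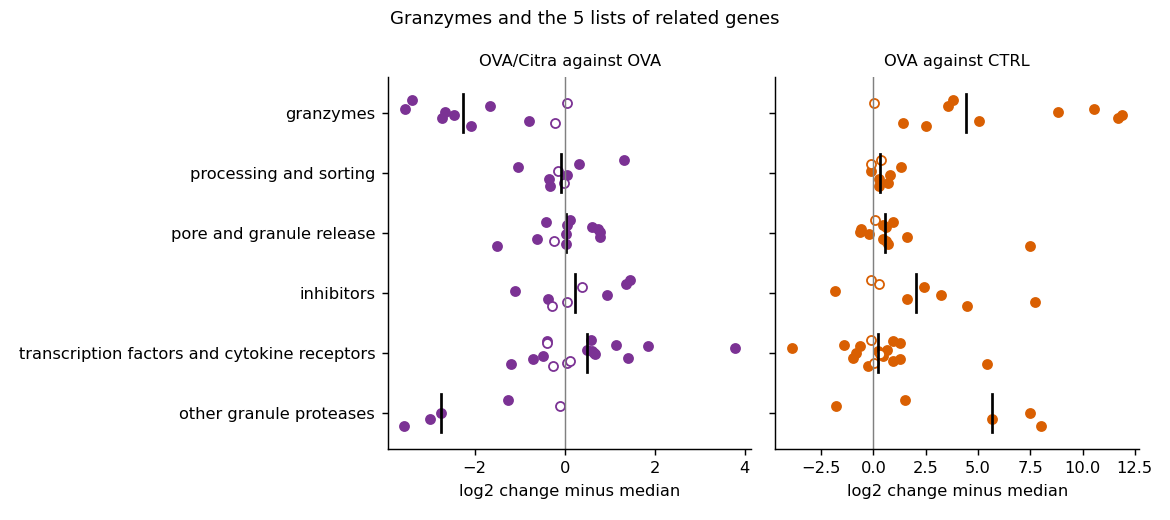
Log2 change of each tested gene, minus the median of all tested genes, by list; filled dots passed an adjusted p of 0.05 in limma, tested before that subtraction, open dots did not, and black bars are list medians. In OVA/Citra against OVA the granzymes and the other granule proteases lie mostly below 0, while the other lists spread to both sides.

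Across the 9 libraries, the genes most like a member on the log2(TPM + 1) scale were found among 9153 genes, a description that the 3 groups shape. Gzmd was closest to Gipc2 (Pearson r = 0.999), then Prf1 and Eomes. Gzme was closest to Prf1, and Gzmg had Klrg1 and Mcpt8 among its 3. Gzmc was closest to Serpinb6a (r = 0.999), Gzma to Sytl2 (r = 0.991) and Gzmb to Snx19 (r = 0.991). Gzmf was closest to Cblb (r = 0.998), Gzmk to Spast (r = 0.992) and Gzmn to Clec4e (r = 0.995).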

How the data were processed

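The values are TPM that the authors deposited, in 1 column per library; each column sums to 1000000, although the table is named for FPKM. Trim Galore 0.5.0, Salmon and the build GRCm39 are named per the submitters' processing notes, without their settings; annotation and read length: not given in the sources used here. Read counts per gene were worked back from the table and were whole for all 16734 genes above 0 in at least 2 libraries (tolerance 0.0001 reads or 3e-08 of the count). They are the smallest whole numbers that fit, so each gene's counts are known only up to a factor common to all libraries. Genes whose mean reached 1 TPM in some group were fitted on log2(TPM + 1) with limma 3.58.1 in R 4.3.3 (lmFit, then eBayes with a trend, 9 libraries together), two-sided, with Benjamini-Hochberg adjustment over 11971 genes and calls under 0.05. The same steps were tested on simulated data. Stretches of 50 bases shared with another granzyme made up 21.9% of Gzmd, 20.6% of Gzme, 19.8% of Gzmg, 7.36% of Gzmf, 5.57% of Gzmn and 4.14% of Gzmc transcripts in GENCODE M21, and 0% of the others; how the authors divided such reads is not known, so these members' levels are uncertain to that extent.

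All 10 members were named, and up to 4 genes per list in full. The genes most alike were the 3 of highest Pearson r among genes reaching 5 TPM. The members and the lists were chosen with earlier results of these data known. Replicate numbers were not used as pairs in the main fit. Same-numbered libraries deviated from their group means with correlations of -0.01 to 0.30, and differently numbered ones with -0.25 to 0.17. For replicate 2, every same-numbered pair was positive (0.08 to 0.30) and every other pair negative (-0.25 to -0.03). Deviations of a gene cancel out within each group, so the negative pairs follow in part from the positive ones. By the positive pairs, the replicate 2 libraries shared a deviation, and its source was not tested. Promoter windows are from RefSeq (GRCm38.p6) and matched all 10 symbols; since builds differ, no other coordinates are given.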

Additional observations from a re-analysis of the deposited data

How the results depend on the processing

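Values here are log2 changes before the all-gene median is taken off. Over 20 alternative settings (other pseudocounts, filters and scalings, voom on the recovered reads, the replicate block, only the groups compared, and each library or all replicates 2 left out), 584 of 597 member values kept their direction and their side of the threshold. Gzmm in OVA against CTRL, never called, lay between -0.26 and 0.20 with 1 library left out, and changed sign to 0.0037 with median of ratios scaling, 0.022 with granzymes left out of the total, 0.011 with voom, and 0.052, 0.083 and 0.20 without OVA replicate 1, OVA replicate 2 or CTRL replicate 3. Gzmb in OVA/Citra against OVA was 0.0031 without OVA/Citra replicate 1 (limma adjusted p = 0.984), -0.22 without OVA/Citra replicate 2 (limma adjusted p = 0.0193) and -0.25 without replicate 2 in every group (limma adjusted p = 0.0128, a setting chosen after seeing the data). The ratio of Gzmn to Gzmb in OVA/Citra against CTRL turned to 0.63 with a pseudocount of 0.1; the cause was not tested. Gzmn in OVA/Citra against CTRL was called with a pseudocount of 0.1 (1.89, limma adjusted p = 0.0340). With the replicate block, Gzma (0.46, limma adjusted p = 0.0256) and Gzmn (0.46, limma adjusted p = 0.0437) were called in OVA/Citra against CTRL, and no other member call changed. The sources used here do not say what same-numbered libraries share. Genes of the 5 lists called lower in OVA/Citra against CTRL were 5, and 3 to 6 when 1 library was left out (3 without replicate 2 in every group). A limma fit of the ratio to Gzmb across all genes, also chosen after seeing the data, gave 26 of 27 ratios under 0.05 and adjusted p-values down to 1.11e-72 on 93.7 degrees of freedom from 9 libraries; every gene shares the Gzmb values there, so its p-values are not used. Depth, taken from the recovered reads, limits Gzmm (41 to 45 reads per group), Gzmn outside OVA, and the CTRL levels of Gzme (22 reads) and Gzmf (13 reads). A lost common factor would make such a number too low.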

Other observations

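The genes beside the chromosome 13 pair, chosen after the values of the chromosome 14 cluster were seen, did not all follow Gzma. Gpx8, an endoplasmic reticulum peroxidase gene next to Gzma, averaged 10.3 TPM in OVA/Citra, 87.9 TPM in OVA and 2.80 TPM in CTRL, and was lower in OVA/Citra than in OVA (limma adjusted p = 3.61e-05). Cdc20b, one gene further, averaged 0.330 TPM in OVA/Citra, 2.22 TPM in OVA and 0.535 TPM in CTRL (limma adjusted p = 0.000380 in OVA/Citra against OVA), and reached the 1 TPM needed for testing only in OVA. Esm1, on the side of Gzmk, averaged 0.808 TPM in OVA/Citra, 2.49 TPM in OVA and 37.9 TPM in CTRL, so it was lower with peptide (limma adjusted p = 1.06e-06 in OVA against CTRL). Snx18, beyond Esm1, moved in the directions of Gzma, at 16.8 TPM in OVA/Citra, 23.9 TPM in OVA and 14.1 TPM in CTRL. Its limma adjusted p was 0.000104 in OVA against CTRL and 0.00237 in OVA/Citra against OVA. Beside Gzmm on chromosome 10, Bsg averaged 676.1 TPM in OVA/Citra, 486.1 TPM in OVA and 995.5 TPM in CTRL (limma adjusted p = 0.000657 in OVA/Citra against OVA), while Gzmm itself ranged over 0.954 to 2.35 TPM in the 9 libraries. Tpgs1 and Hcn2 were also higher in OVA/Citra than in OVA, and Cdc34 was lower (limma adjusted p of at most 0.00275).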
